A study of Homo sapiens with 4 samples.

Results

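MYC and the sequence around it were described from the open chromatin peaks that lay between positions 128000000 and 129300000 of chromosome 8 on build hg19, a stretch of 1.30 Mb within band 8q24.21. MYC occupies about 128748315 to 128753680 in this window, PVT1 lies downstream of it, and a gene desert lies upstream. The members were taken by position alone, in a window set with earlier results of these data known. They were 108 peaks of the 181268 in the 4 deposited lists, and merging peaks that overlapped or touched gave 53 regions of 87966 in the whole series, of which 3769 were on chromosome 8. Accessibility had been measured with ATAC-seq, an assay whose transposase cuts and tags open DNA, in H1 cells, an established line of human embryonic stem cells grown without feeder cells.

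The groups were cells treated with 25 ng/ml Activin A, with 25 ng/ml Wnt3a or with 25 ng/ml of each ligand, and a control, with 1 library per group. Treated cells were harvested after 6 h, and the labels give no harvest time for the control. All groups grew on Matrigel. The control stayed in medium with N2, B27 and basic fibroblast growth factor, whereas the medium of every treated group is listed with B27 and without N2 or that factor. In each comparison with control, ligand and medium therefore cannot be told apart. The comparison of both ligands with either ligand alone is within 1 medium. No group had a replicate, so no test between groups could be made, and the exact (Clopper-Pearson) 95% intervals given with shares cover counting error alone. The peak lists show neither how many cells nor how much of the signal of each cell lay behind a peak. The cell type was not checked against its markers, because no gene positions on hg19 other than those of MYC were used.

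MYC encodes a transcription factor of the basic helix-loop-helix leucine zipper class that promotes growth and proliferation. It is a textbook target of beta-catenin and TCF factors, the nuclear end of the Wnt pathway, a relation worked out largely in colorectal cancer cells, and SMAD proteins downstream of TGF-beta family ligands are known to act on it in epithelial cells. Its neighbourhood is known for distant enhancers that act on MYC in particular tissues, placed both in the upstream desert and across PVT1, a long non-coding RNA gene. In the RefSeq gene order, read for names only because that table is on another build, CASC11 and then POU5F1B, a retrogene related to POU5F1, are among the genes upstream of MYC, and PVT1, the host of MIR1204, follows MYC. No peak was assigned to any of these neighbours.

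At MYC itself every list had a peak across the start of the gene, and its place within the list was lowest after Wnt3a. The start peak is described by its percentile, the percent of peaks in the same list with a lower score, since the score is the authors' own value within a library and can be compared only as a rank within its list. It stood at percentile 97.5 after Activin A, 50.9 after Wnt3a, 92.8 after both ligands and 95.6 in control. The ranks were 1923 of 75585 peaks after Activin A, 10357 of 21078 after Wnt3a, 4185 of 58382 after both and 1159 of 26223 in control. The Activin A, combined and control lists thus had the MYC start among their highest 10% of peaks, and the Wnt3a list had it near its middle. The lists differ in length, and a percentile depends on how many weaker peaks its list holds. Each list was therefore also cut to its 21078 best-scoring peaks, the length of the shortest. At that equal length the start peak stood at 90.9 after Activin A, 50.9 after Wnt3a, 80.1 after both and 94.5 in control. Control was then highest and Wnt3a again lowest. Without replicates, the distance between Activin A and control in this order cannot be set against any spread.

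The start peak also differed in extent. It was 1780 bp wide after Activin A, 750 bp after Wnt3a, 1145 bp after both ligands and 1638 bp in control. After Wnt3a it began 271 bases before the start of MYC, against 1123 in control, whereas it ended 478 bases past the start, against 514 in control. The narrower Wnt3a peak was therefore short on its upstream side. After Activin A the peak began 1280 bases before the start of the gene, and after both ligands 428 bases before it. Activin A and the combination each had a further peak just upstream, one of 874 bp at percentile 86.8 after Activin A and one of 1535 bp at 81.8 after both. Wnt3a and control had no separate peak there, although the control start peak reached into the stretch that the combined list covered with its upstream peak.

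Further regions lay within MYC, where Wnt3a alone had no peak, and just behind it, where neither Wnt3a nor control had one. Within MYC, 2 Activin A peaks (percentiles 41.5 and 73.7), 1 combined peak (71.9) and 1 control peak (48.0) fell into a common region at 128749639 to 128751737, and Wnt3a had none. Another region, at 128755023 to 128755735 and 1.34 kb behind the gene, had a peak at percentile 71.8 with Activin A and 56.6 with the combination, and none after Wnt3a or in control. Lists cut to equal length kept the gene body peak at 5.84 after Activin A, 22.2 after both and 35.3 in control, and kept no peak of the region behind the gene.

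**Figure D1:**
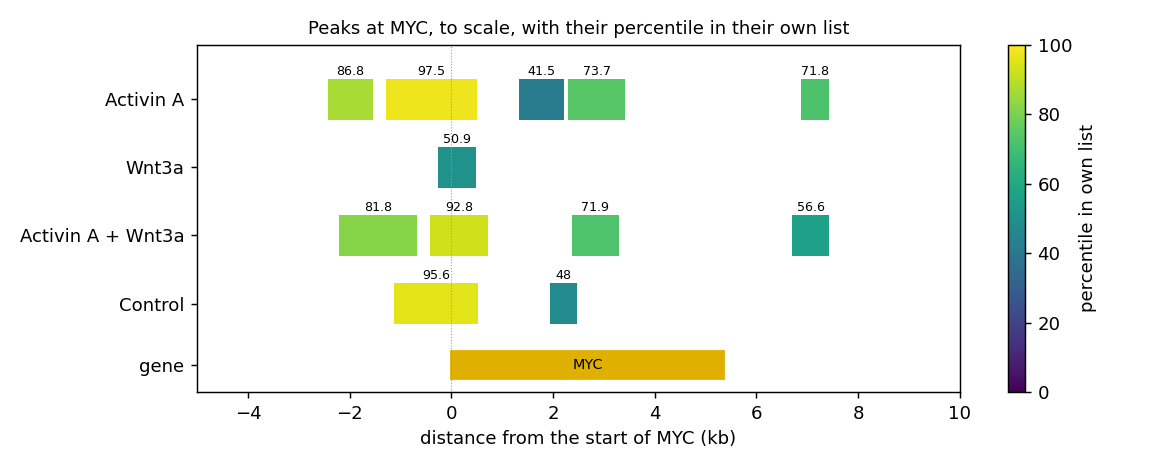
Peaks of the 4 lists from 5 kb before to 10 kb after the start of MYC, drawn to scale along the distance from that start in kb, with 1 row per list and the gene in the bottom row. Colour and the printed number give the percentile of each peak in its own list; the peak at the start stands at 97.5, 50.9, 92.8 and 95.6 from the top row down, and the Wnt3a row holds no other peak.

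The window as a whole held 47 peaks after Activin A, 10 after Wnt3a, 35 after both ligands and 16 in control. These numbers followed the length of the lists. The window count was 2.94 times that of control after Activin A, 0.625 times after Wnt3a and 2.19 times after both, where the whole lists stood at 2.88, 0.804 and 2.23 times the control length. As a share of its list, the window held 0.0622% of peaks after Activin A (95% interval 0.0457 to 0.0827), 0.0474% after Wnt3a (0.0228 to 0.0872), 0.0599% after both (0.0418 to 0.0834) and 0.0610% in control (0.0349 to 0.0991). All 4 intervals overlapped. Per Mb, the window held more peaks than chromosome 8 in every list. It held 36.2 against 22.0 after Activin A and 7.69 against 5.67 after Wnt3a. After both it held 26.9 against 16.8, and in control 12.3 against 6.89. No interval is given with these densities. The value after Wnt3a rests on 10 peaks, so the higher density there cannot be told from counting error.

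Peaks were unevenly spread around the gene in all 4 lists. The side upstream of MYC, 748 kb of desert, held 14 peaks after Activin A, 2 after Wnt3a, 14 after both ligands and 3 in control, or 18.7, 2.67, 18.7 and 4.01 per Mb. The 546 kb downstream held 30 after Activin A, 7 after Wnt3a, 19 after both and 11 in control, or 54.9, 12.8, 34.8 and 20.1 per Mb. The downstream side was denser in each list, and there the density was above that of chromosome 8 in each. Upstream it was below that of chromosome 8 after Activin A, after Wnt3a and in control, and above it after both. These are small counts without intervals, and the 18.7 after both, beside 16.8 on chromosome 8, was not tested against counting error. The upstream counts after Activin A and after both also include a peak near the gene, 1.55 kb and 0.677 kb before it. The combined and the Activin A lists had equal numbers of upstream peaks, but downstream the Activin A list had more. Strong peaks, meaning those at or above percentile 75 of their list, were nearly all at or downstream of the gene. On the downstream side there were 7 after Activin A, 4 after Wnt3a, 6 after both and 3 in control, and on the upstream side 1 after Activin A, 0 after Wnt3a, 1 after both and 0 in control. Both strong upstream peaks were those just before the MYC start peak. The longest stretch without a peak was 484 kb after Wnt3a, and it ended at the MYC start peak. In control it was 265 kb and ended there too, while it was 172 kb after Activin A, in the desert. After both it was 163 kb, counted only up to the downstream edge of the window. The next region of any list lay 25.8 kb past that edge, so the full stretch after both was longer than 163 kb.

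**Figure D2:**
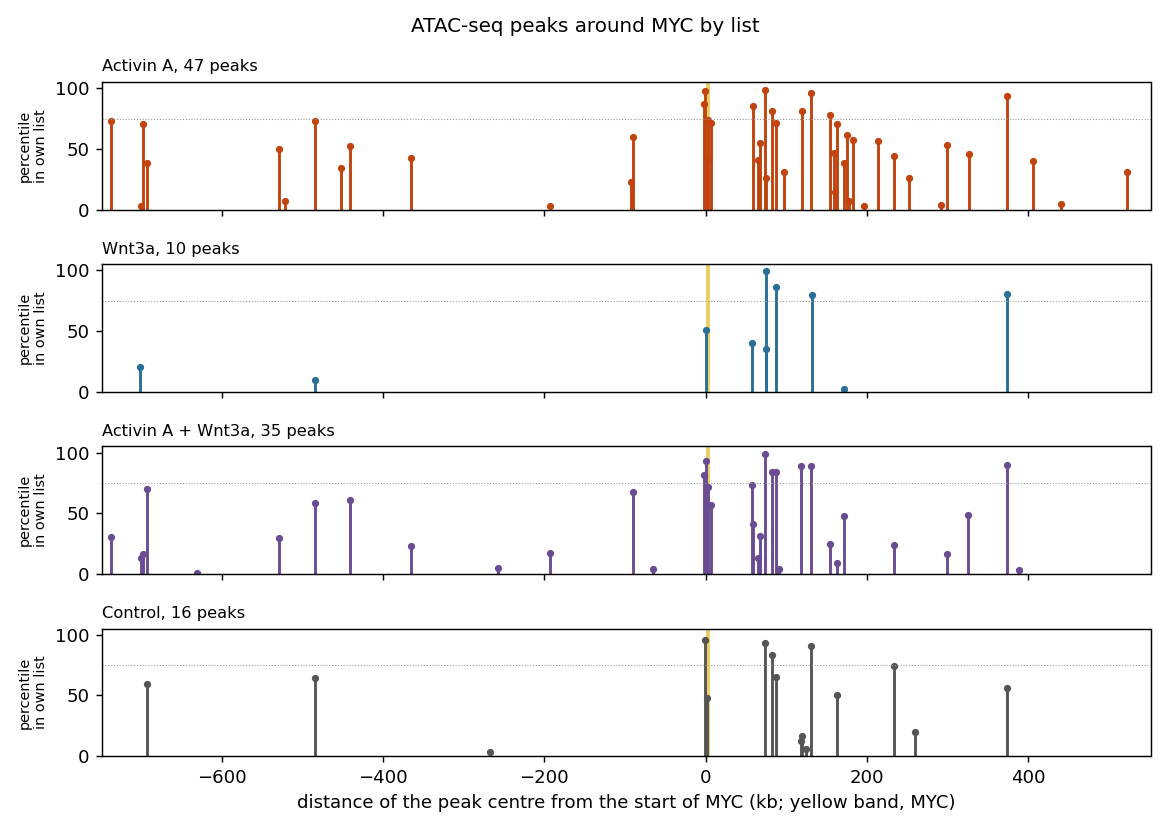
Every peak in the window, placed by the distance of its centre from the start of MYC in kb, with its percentile in its own list as height, 1 panel per list; the yellow band is MYC and the dotted line marks percentile 75. The panels hold 47, 10, 35 and 16 peaks from top to bottom, and in all of them the downstream side is the denser one.

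The region with the highest rank in the window was not at the gene in any treated list. It lay 67.7 kb downstream of MYC, at 128821418 to 128823983, and its best peak stood at percentile 99.1 after Activin A, 99.2 after Wnt3a, 99.2 after both ligands and 92.8 in control. That was rank 716 after Activin A, 167 after Wnt3a, 464 after both and 1888 in control. In control it came second, behind the MYC start. At equal list length it stood at 96.6 after Activin A, 99.2 after Wnt3a, 97.8 after both and 91.0 in control, so that each treated list again placed it above the control percentile. Its main peak was 1531 bp wide after Activin A, 1084 bp after Wnt3a, 2009 bp after both and 1146 bp in control. A small second peak followed it after Activin A (593 bp, percentile 26.2) and after Wnt3a (545 bp, 35.6), at a place that the combined list left without a separate peak. The Wnt3a library thus ranked this site among its highest 1% of peaks while the MYC start stood at its middle.

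Of the 53 regions, 6 had a peak in all 4 lists (11.3%, beside 14.8% of all regions). They were the MYC start, the region 67.7 kb downstream and others at 81.1 kb, 125 kb and 367 kb downstream and 483 kb upstream. The region at 129120873 to 129122232, 367 kb downstream, stood at 93.5 after Activin A, 80.7 after Wnt3a, 89.8 after both ligands and 55.8 in control, and at equal length at 76.7, 80.7 and 71.9 after the treatments in that order and 45.1 in control. This region and the one at 67.7 kb were the 2 of the 6 that stood above control in each treated list at both list lengths. The share of all regions that did so was not computed. List by list, 87.5%, 42.8% and 80.3% of all regions shared with control stood above it after Activin A, Wnt3a and both. At equal length these shares were 49.1%, 49.6% and 49.0%. The region at 128834791 to 128835981, 81.1 kb downstream, stood at 71.5 after Activin A, 86.3 after Wnt3a, 84.4 after both and 64.9 in control. At equal length it kept its place above control after Wnt3a (86.3) and barely after both (56.8), against 56.4 in control, and dropped out of the Activin A list.

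The other shared regions stood highest in control at equal length. The region at 128878785 to 128880215, 125 kb downstream, stood at 96.1 after Activin A, 80.1 after Wnt3a, 89.2 after both ligands and 90.5 in control, and at equal length at 86.0, 80.1 and 70.0 after the treatments in that order and 88.2 in control. The region at 128263952 to 128264983, 483 kb upstream, was the desert's only one shared by all lists. Its percentile was 73.5 after Activin A, 9.81 after Wnt3a, 58.9 after both and 64.0 in control, and at equal length it stood at 4.97 after Activin A, 9.81 after Wnt3a and 55.2 in control, with no peak left after both. Across all regions found in both lists at equal length, the median difference from control was close to 0. It was -0.237 percentile points after Activin A and after both and -0.0901 after Wnt3a. Equal length gives each list the same range of percentiles, which favours a value near 0 but does not fix it. In the window the corresponding medians were -3.62 after Activin A over 7 regions, 0.0451 after Wnt3a over 6 and -13.7 after both over 8. In the full lists they were 6.42 after Activin A (9 of 12 regions above control, beside 87.5% of all), -2.00 after Wnt3a (3 of 6, beside 42.8%) and 3.69 after both (7 of 12, beside 80.3%), so the sign of each median depended on list length. After Activin A, single regions differed from control by -50.2 to 31.6 points at equal length and by -29.6 to 64.4 in the full lists. The medians after Activin A therefore summarise sites on both sides of control.

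**Figure D3:**
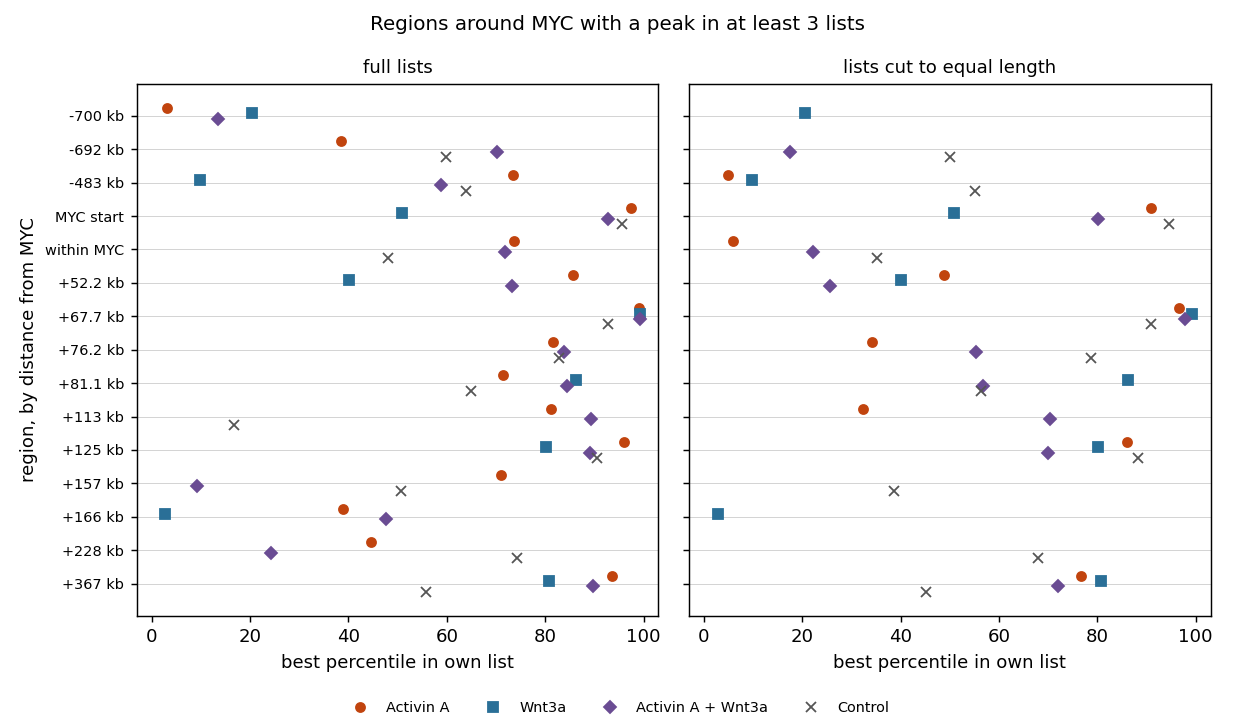
Best percentile of each region with a peak in at least 3 lists, by list, with regions in order of distance from MYC and no mark where a list has no peak; left, full lists, and right, lists cut to their 21078 best-scoring peaks. The regions at 67.7 kb and 367 kb downstream have all 3 treated marks to the right of control in both panels, whereas the MYC start has control furthest right at equal length.

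The share of regions gained around MYC was close to that of the series. A region was called gained where the treated list had a peak and control had none, and lost in the reverse case. After Activin A, 32 of 44 regions were gained (72.7%, 57.2 to 85.0), beside 70.0% of all regions. After Wnt3a, 3 of 9 were gained (33.3%, 7.49 to 70.1), beside 33.1% of all regions. After both ligands, 22 of 34 were gained (64.7%, 46.5 to 80.3), beside 62.5%. In each case the share over all regions lay inside the interval of the window. At equal list length 4 of 11 regions were gained after Activin A, 3 of 9 after Wnt3a and 3 of 11 after both, with 32.2%, 39.0% and 32.9% over all regions. Of the gained regions 11, 1 and 11 lay upstream and 21, 2 and 11 downstream, in the order of treatments just used. None overlapped MYC, where all regions were present in control.

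Gained regions had a median percentile below the middle of the list after each treatment. Their median percentile was 41.8 with Activin A, 20.5 with Wnt3a and 23.9 with the combination, beside 37.4, 29.2 and 35.3 over all gained regions, and regions kept from control stood at 77.4, 80.4 and 84.1, beside 83.4, 64.7 and 79.6 over all kept regions. Among the strong regions of each treated list, 2 of 8 were gained after Activin A (25.0%, beside 22.1% of all strong regions), 0 of 4 after Wnt3a (beside 5.12%) and 0 of 7 after both (beside 15.2%). The intervals for these zero counts reach 60.2% and 41.0%. The highest gained region of all 3 treatments was the same, at 128805846 to 128807372 and 52.2 kb downstream of MYC. It stood at 85.7 with Activin A, 40.1 with Wnt3a and 73.2 with both, and its peak was 1527 bp, 488 bp and 866 bp wide in that order, where control had none. It was in all 3 treated lists at equal length, at 48.9, 40.1 and 25.7. The other strong gained region after Activin A was 148 kb downstream, at 128901914 to 128902776, with percentile 78.0 after Activin A and 25.0 after both. Next after Activin A came the region nearest the lower edge of the window, 737 kb upstream at 128010851 to 128011383, at 73.5 after Activin A and 30.9 after both. After both ligands the following gained regions were 89.4 kb upstream (67.7 after both and 59.9 after Activin A) and 441 kb upstream (61.2 after both and 52.5 after Activin A). Wnt3a shared its remaining gained regions with both other treated lists, one 700 kb upstream at 20.5 and one 166 kb downstream at 2.82.

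Losses around MYC were most frequent after Wnt3a, as in the whole series. Of the 15 control regions, 3 were lost after Activin A (20.0%, 4.33 to 48.1, beside 11.5% of all control regions), 9 after Wnt3a (60.0%, 32.3 to 83.7, beside 46.5%) and 3 after both ligands (20.0%, 4.33 to 48.1, beside 15.2%). At equal list length 5, 6 and 4 of 12 control regions were lost after the treatments in that order, beside 30.2%, 39.9% and 30.9% of all. In the full lists the regions lost with Activin A and with both were the same, and Wnt3a lacked them too. They were the 3 found in control alone (5.66% of the window's regions, beside 2.55% of all). These lay 266 kb upstream and 118 kb and 254 kb downstream of MYC, with control percentiles of 3.36, 6.17 and 20.0. The other 6 regions lost after Wnt3a were present in both lists with Activin A. The highest of them, at 128829882 to 128831104 and 76.2 kb downstream, stood at 81.6 after Activin A, 83.9 after both and 82.9 in control. It was 1 of 4 strong control regions, of which Wnt3a thus lacked 25.0% (0.631 to 80.6), beside 9.72% of all strong control regions. Activin A lacked 0 of the 4 (beside 0.155%) and the combination 0 of the 4 (beside 0.309%). Next were the region 228 kb downstream (44.7 after Activin A, 24.3 after both, 74.2 in control) and the one 692 kb upstream (38.6 after Activin A, 70.3 after both, 59.8 in control).

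**Figure D4:**
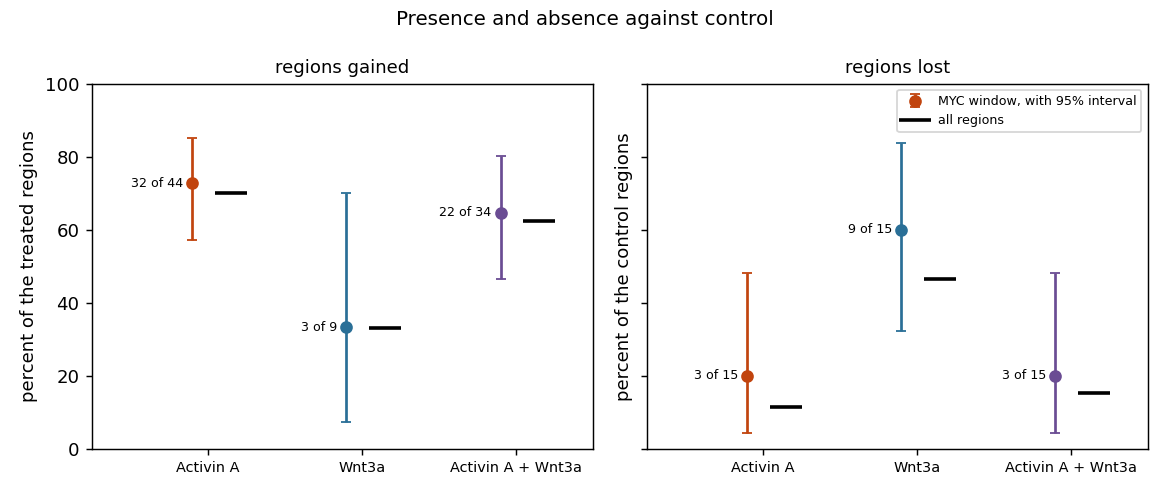
Share of regions gained (left, percent of the regions of each treated list) and lost (right, percent of the control regions) in the MYC window, as points with exact 95% intervals and counts, beside the share over all regions of the series as a black bar. Each black bar lies within the interval of its window share.

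Regions kept from control were mostly wider after treatments that included Activin A, as in the whole series. Width here is the sum over all peaks that a list had in the region. Of the 12 regions with a peak after Activin A and in control, 11 were wider after Activin A, with a median ratio of 1.45, beside 83.0% wider and a median of 1.36 over all such regions. After both ligands 11 of 12 were wider than in control (median 1.61, beside 84.9% and 1.38). After Wnt3a 3 of 6 were wider (median 1.00, beside 34.5% and 0.886). Summing decided some of these calls. At the MYC start the combined list had 2680 bp over 2 peaks, against 1638 bp in control. Its start peak alone, at 1145 bp, was narrower than that of control. The region 67.7 kb downstream had 1629 bp over 2 peaks after Wnt3a, against 1146 bp in control, with a main peak of 1084 bp. The largest ratio, 3.72 after Activin A, was that of the region within MYC, which had 2 Activin A peaks. The region 113 kb downstream, at 128866302 to 128868140, was a single combined peak of 1839 bp at percentile 89.3 and an Activin A peak of 1127 bp at 81.1, where control had 2 narrow peaks of 552 bp and 531 bp at 12.9 and 16.8 and Wnt3a had none. At equal length it stood at 32.4 after Activin A and 70.4 after both, and control had no peak left. In the opposite direction, the region 228 kb downstream was 796 bp wide after Activin A, 524 bp after both and 1040 bp in control. By summed width it was the only one narrower than control after Activin A or after both.

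Both ligands together were set beside each ligand alone, within the same medium. Of the 34 regions of the combined list, 6 were absent after Activin A (17.6%, 6.76 to 34.5, beside 21.0% of all regions) and 25 were absent after Wnt3a (73.5%, 55.6 to 87.1, beside 67.9%). In the reverse direction 16 of 44 Activin A regions (36.4%, 22.4 to 52.2, beside 39.4%) and 0 of 9 Wnt3a regions (0 to 33.6, beside 9.27%) were absent from the combined list. The 9 Wnt3a regions were also all in the Activin A list, where 6.02% of all Wnt3a regions were not. These counts come from lists of unequal length, and at equal length the imbalance was smaller. Of 11 combined regions, 3 were then absent after Activin A (beside 21.5% of all regions) and 5 after Wnt3a (beside 33.6%), while 3 of 11 Activin A regions (beside 21.5%) and 3 of 9 Wnt3a regions (beside 30.6%) were absent from the combined list. The count of 0 Wnt3a regions in the full lists also became 1 with 500 bases around each centre. Counted by single peaks and not by regions, 4 Wnt3a peaks had no combined peak when an overlap of 50% of each peak was required. The 6 regions found with both ligands alone (11.3% of the window's regions, beside 12.4% of all) had percentiles of 1.22 to 41.3. The highest of them, 53.7 kb downstream, was separated by 17 bases from the Activin A peak of the region gained 52.2 kb downstream. Of the 7 strong combined regions, 0 were absent after Activin A (beside 0.305% of all strong combined regions) and 2 were absent after Wnt3a (28.6%, beside 21.8%), which were those 76.2 kb and 113 kb downstream. Of the 8 strong Activin A regions, 0 were absent from the combined list (beside 1.35%).

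The regions found after Activin A alone numbered 16, or 30.2% of the window's regions beside 30.1% in the whole series, with percentiles of 3.61 to 61.6 and widths of 380 to 1168 bp. Of these, 13 lay downstream and 3 upstream. A stretch from 148 kb to 208 kb downstream, picked after its values were seen, held 10 regions, all with an Activin A peak, against 1 with a Wnt3a peak, 3 with a combined peak and 1 with a control peak. Of the 87966 regions of the whole series, 73116 had an Activin A peak, 19801 a Wnt3a peak, 56055 a combined peak and 24769 a control peak. The contrast within the stretch belongs to the full lists. At equal length 1 of its regions had a peak left after Activin A, 1 after Wnt3a, 0 after both and 1 in control. In the stretch lay 7 of the 16 regions found after Activin A alone. The highest of them stood at 61.6 and was 170 kb downstream of MYC. The regions shared by Activin A and the combined treatment alone numbered 13 (24.5%, beside 21.9% of all regions). They ranked from 3.34 to 78.0 after Activin A and from 13.6 to 67.7 after both. By number of lists, 25 of the 53 regions had a peak in 1 list (47.2%, beside 46.0% of all regions) and 13 in 2 (24.5%, beside 25.3%). A further 9 had one in 3 lists (17.0%, beside 13.9%) and 6 in all 4 (11.3%, beside 14.8%).

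The edges of the window cut through no peak. The nearest regions inside were 10.9 kb from the lower edge, described above, and 28.9 kb from the upper edge, a single Activin A peak at percentile 31.4. The nearest outside were a combined peak 26.5 kb below the window at percentile 30.6 and a region 25.8 kb above it with a peak in all 4 lists, at 80.1 after Activin A, 10.4 after Wnt3a, 78.8 after both ligands and 7.01 in control. Neither was counted in any value given here.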

How the data were processed

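Each of the 4 libraries was represented by the list of peaks that the authors deposited, with chromosome, start, end, a peak name of the MACS style and a score. The build was hg19, and the tools named are CASAVA 1.8 and Bowtie2 2.2.2, per the submitters' processing notes. Version and settings of the peak caller, treatment of duplicates, any transposase shift and read totals are not given in the sources used here; depth is unknown. More depth lets more weak peaks pass a caller's threshold.

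The deposited score was used only as a rank within its list. Groups came from the labels. Peaks of the 4 lists sharing at least 1 base or book-ended were merged; this can chain neighbouring peaks, so peak ends are given at MYC. Regions were named by a rule (those within 10 kb of MYC, the 3 best peaks of each list, those in all 4 lists, the 3 highest gained and lost per treatment, those at the edges); others are named where a count of 5 or fewer or a contrast singles them out. The members, lists and rules were chosen with earlier results of these data known. Alternatives covered list length, score threshold, overlap, width, distance and the Wnt3a list. Merging was tested on simulated data. Coordinates count from 1. Python 3.11.15, numpy 2.4.6, pandas 2.3.3, scipy 1.17.1, matplotlib 3.10.9 and, for the chromosome length and band, circlize 0.4.16 were used.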

Additional observations from a re-analysis of the deposited data

How the results depend on the processing

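Of 94 values recomputed under other settings, 64 stayed (counts within 1.5 times, shares within their 95% interval) and 30 moved. All stayed when peaks within 500 bases were merged, when absence meant no peak within 1 kb, without the Wnt3a list and with peaks wholly inside the window. At equal list length the window held 12 peaks after Activin A and 12 after both ligands; gained regions then numbered 4 with Activin A and 3 with both, and 5 were lost with Activin A. Both ligands then had 3 regions absent after Activin A and 5 absent after Wnt3a, and 3 Activin A and 3 Wnt3a regions were absent with both. Among peaks at or above the median score of their list the window held 24, 5 and 15 peaks after Activin A, Wnt3a and both, against 10 in control; 15, 0 and 6 regions were gained, 5 were lost after Wnt3a, both ligands had 1 region absent after Activin A and 9 absent after Wnt3a, and 10 Activin A regions were absent with both. Fewer peaks enter both settings by construction. A required overlap of 50% of each peak was counted by single peaks and not by regions. It gave 5 gained after Wnt3a, 7 lost after Activin A and 8 lost after both. By that count, 4 Wnt3a peaks were absent with both. Taking 500 bases around each centre gave 5 lost after both and 1 Wnt3a region absent with both. As a share of chromosome 8 the window held 1.46%, 1.20% and 1.42% of peaks after Activin A, Wnt3a and both, against 1.59% in control; that denominator is smaller by construction. The cause of the other shifts was not tested. No paired analysis was possible because there was 1 library in each group. Depth is unknown, and whether a weak peak is present can depend on it.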
